A study of Mus musculus with 8 samples.

Results

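Genes of fatty acid uptake were followed in the endothelium of a mouse melanoma: Gpihbp1, Lpl, Cd36, Slc27a3, Fabp4, Fabp5, Pparg, Rxra, Meox2 and Tcf15, which are 10 of the 28692 genes in the count matrix. They were chosen by name for their place in the transport of fatty acids across the vessel wall, and all 10 rows were found. Earlier results of these data were known at that choice. Counts of members set against all genes therefore describe the list and are no independent support. The cells came from fragments of MT-ret melanoma grown on the flank of 10 C57BL/6N mice. Endothelial cells of blood vessels (BEC) and of lymphatic vessels (LEC) were separated by cell sorting, 10000 of each, and taken into droplet libraries made with a 10x Genomics 3′ kit. In these a random tag, the unique molecular identifier (UMI), marks every captured RNA molecule. The labels name no other genotype, treatment, tumor-free tissue or time, so both sorts share the tumor and the strain, and they tie no cell to a mouse. The labels list 4 libraries per sort, but the columns of the matrix name only the sort. Each sort is therefore 1 sample: there is no test between them, no p-value and no replicate check, and the intervals below cover counting error only.

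Fatty acids reach a tissue mostly inside triglyceride-rich lipoproteins or bound to albumin. Gpihbp1 on the lumenal face of capillary endothelium holds lipoprotein lipase (Lpl), which frees the fatty acids; Cd36 and transport proteins of the Slc27 family take part in their passage over the membrane; and Fabp4 and Fabp5 carry them within the cell. The nuclear receptor Pparg, which pairs with Rxra, and the pair of transcription factors Meox2 and Tcf15 are known to drive several of these genes in endothelium, the latter above all in the heart. Lpl itself is made largely by fat and muscle cells and is carried to the capillary.

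The BEC sort held 3228 cells with a median of 19416 UMIs and the LEC sort 4407 cells with a median of 11000, and levels are given as counts per 1000000 UMIs of the cells summed (CPM). In genes found in 0.2 to 1% of the cells, values of 1 to 4 made up 96.4% of the values above 0 in BEC and 96.9% in LEC, while a value of 5 made up 0.981% and 0.868%. A molecule was thus entered a mean of 2.03 times in BEC and 2.27 times in LEC if these values stand for single molecules. How the 4 libraries were joined is not stated in the sources used here, and the cause of this pattern was not tested; all counting intervals were widened for it. Cells were gated on markers that include none of the 10 genes. In the BEC sort, 3098 cells (96.0%) were of blood lineage, 16 of lymphatic lineage, 19 melanocytic and 75 stromal. In the LEC sort, 3689 cells (83.7%) were of lymphatic lineage, 99 of blood lineage, 245 melanocytic and 87 stromal. No cell passed the gate of adipocytes, a rich source of Fabp4, Pparg and Lpl: the summed level of the 7 adipocyte markers came to 0.140 CPM in BEC against 0.894 CPM in LEC. Adipoq had 2 and 5 UMIs, and Plin1 was at 0 in BEC. The leukocyte and macrophage list, another possible source of Lpl, Fabp4 and Fabp5, summed to 55.5 and 73.7 CPM, with 6 and 5 gated cells. Of the cell barcodes, 34 occurred in both sorts; without them the median log2 difference between the sorts over the 10 genes was -1.67 in place of -1.68.

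Promoter windows from RefSeq (GRCm38.p6, 250 bases before to 50 after a start) were at hand for Cd36, Slc27a3, Pparg, Rxra and Meox2. Those of Cd36 and Meox2 are printed here, since these were the members with a window that stood more than 2-fold apart between the sorts. In the Cd36 window (chr5:17835847-17836146, minus strand) capitals mark the match to AGGTCA, the half-site of nuclear receptors such as Pparg and Rxra, searched on both strands. In the Meox2 window (chr12:37108290-37108589, plus strand) capitals mark the match to CANNTG, the E-box bound by factors of the class of Tcf15.
Cd36: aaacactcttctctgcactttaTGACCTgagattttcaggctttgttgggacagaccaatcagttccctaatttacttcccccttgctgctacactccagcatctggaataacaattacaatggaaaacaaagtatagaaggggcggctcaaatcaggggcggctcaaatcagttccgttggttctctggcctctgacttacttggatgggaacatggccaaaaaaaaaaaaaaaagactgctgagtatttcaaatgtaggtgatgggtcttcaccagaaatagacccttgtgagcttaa
Meox2: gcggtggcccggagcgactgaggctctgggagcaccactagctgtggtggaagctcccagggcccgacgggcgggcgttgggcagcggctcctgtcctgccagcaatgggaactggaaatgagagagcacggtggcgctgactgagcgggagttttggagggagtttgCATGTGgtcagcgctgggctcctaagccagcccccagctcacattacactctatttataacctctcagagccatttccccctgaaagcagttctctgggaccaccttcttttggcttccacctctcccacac
The Cd36 window held 1 half-site, read as its reverse complement TGACCT, whose first base lay at position -228 with the start site as position 0. A half-site was also found in 16.3% of all 32851 windows of this length. No window of a member held the spaced pair AGGTCANAGGTCA, which was in 0.0396% of all windows. The E-box of the Meox2 window lay at position -82, and an E-box was in 72.3% of all windows; the Cd36 window held 2. A match to TATAAA lay at position -29 of Meox2, again on the opposite strand, and such a match was in 13.6% of all windows. These matches describe the letters only.

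Between the sorts, the genes for capture, membrane uptake and binding of fatty acids, and the pair Meox2 and Tcf15, were mostly at higher levels in blood endothelium, whereas the nuclear receptor pair was at like levels in both. Of the 9 members that reached 10 CPM in 1 sort or both, 5 stood at least 2-fold above LEC in BEC (Gpihbp1, Cd36, Fabp4, Meox2 and Tcf15) and 0 stood that far above BEC in LEC. Tcf15 reached 10 CPM only in BEC, where it was high. Over all 8307 genes at that level, 8.76% had such an excess in BEC and 11.7% had it in LEC. The median log2 difference of LEC from BEC was -1.68 over the 10 members and 0.10 over all those genes. When only blood-lineage cells of the BEC sort and lymphatic-lineage cells of the LEC sort were summed, 8 members reached 10 CPM, 6 had the excess in BEC, now with Fabp5, and Lpl was higher in LEC. Over all 8265 genes at that level these shares were 9.62% for BEC and 11.6% for LEC. Between these gated lineages Cd36 and Tcf15 reached 10 CPM only in BEC, and Lpl only in LEC.

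**Figure D1:**
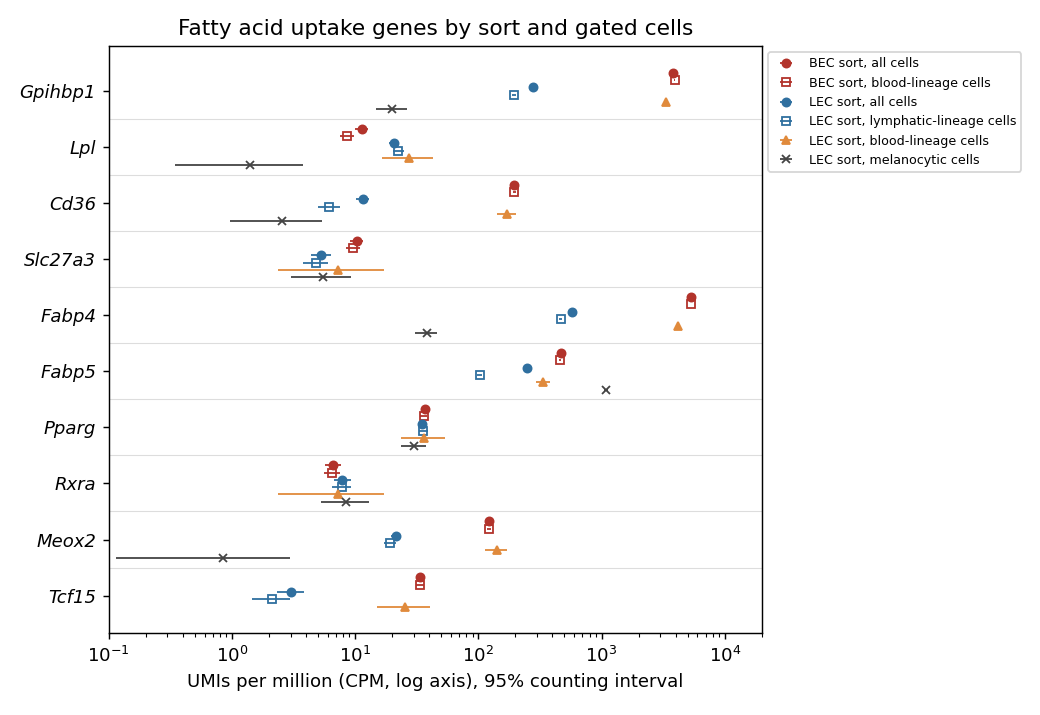
Level of each gene in CPM (log axis) in all cells and in gated cells of the 2 sorts, with 95% counting intervals as bars. Red symbols (BEC) lie to the right of blue ones (LEC) for Gpihbp1, Cd36, Fabp4, Meox2 and Tcf15, and the 99 blood-lineage cells of the LEC sort (orange) lie near the red; Tcf15 is at 0 in melanocytic cells and has no point there.

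Gpihbp1 (chr15:75596628-75599481), the capillary anchor of lipoprotein lipase, was at 3798 CPM in the BEC sort (3775 to 3821) and reached 277 CPM in the LEC sort (270 to 284). This is 13.7-fold higher in BEC (13.4 to 14.1), and 20.1-fold higher between the gated lineages. After each cell was thinned to 5000 UMIs, 98.0% of blood-lineage cells had a UMI of it (97.5 to 98.5%). The level per blood-lineage cell had its 10th percentile at 6.25, its median at 33.9 and its 90th percentile at 77.3 UMIs per 10000. In lymphatic-lineage cells 33.3% had a UMI (31.8 to 34.8%), against 6.53% of the melanocytic cells of the same sort, which should lack the gene and serve as a measure of free RNA. Their median depths before thinning were 10389 and 29438 UMIs. The lymphatic share lay above the melanocytic share. A like amount of free RNA would make up a smaller part of the deeper melanocytic cells after thinning. Their share can thus be too low a background for lymphatic cells, here and for the genes below. Blood-lineage cells, 2.25% of the LEC sort, held 39.0% of its Gpihbp1 UMIs.

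Its ligand Lpl (chr8:68880491-68907448) had the opposite order. It was at 11.3 CPM in the BEC sort and 20.6 CPM in the LEC sort, 1.83-fold higher in LEC (1.58 to 2.12). This rested on how cells were weighted: the log2 difference was 0.82 for summed cells and 0.10 when every cell weighed the same. Between the gated lineages it was at 8.62 and 22.5 CPM, 2.61-fold higher in lymphatic cells (2.20 to 3.09). The few blood-lineage cells of the LEC sort, however, were at 27.6 CPM. Whether the difference goes with the lineage or with the sort was not tested. Lpl was seen in few cells of either lineage, 1.90% of blood-lineage and 5.75% of lymphatic-lineage cells after thinning, against 0.816% of melanocytic cells. In the BEC sort the 75 stromal cells were at 140 CPM and held 25.8% of the Lpl UMIs. These stromal-gated cells also carried endothelial markers, at a summed 2238 CPM of 5 pan-endothelial genes against 4020 CPM in blood-lineage cells, so that they cannot be taken as stromal cells alone.

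Cd36 (chr5:17781690-17888801), a membrane receptor for long-chain fatty acids, was at 196 CPM in the BEC sort (191 to 202) against 11.5 CPM in the LEC sort (10.1 to 13.1), 17.0-fold higher in BEC (15.0 to 19.4). In the gated lineages it was at 195 and 6.19 CPM, a 31.5-fold difference (25.8 to 38.9). A UMI was found in 41.2% of blood-lineage cells. In lymphatic-lineage cells the share was 1.76% (1.36 to 2.24%). In melanocytic cells of the LEC sort it was 1.22% (0.253 to 3.54%), with a level of 2.54 CPM. Blood-lineage cells held 47.8% of the Cd36 UMIs of the LEC sort.

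Slc27a3 (chr3:90385239-90389938) belongs to the fatty acid transport protein family. It was low in both sorts, at 10.3 CPM in BEC against 5.33 CPM in LEC, 1.94-fold higher in BEC (1.55 to 2.43). Its share of lymphatic-lineage cells, 1.46%, lay below that of melanocytic cells, 3.27%. Its place in blood endothelium was uneven and is given with the subsets below.

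Fabp4 (chr3:10204088-10208576), the fatty acid binding protein of fat cells and capillaries, was at 5290 CPM in BEC against 574 CPM in LEC, 9.22-fold higher in BEC, and 11.4-fold higher between the gated lineages. A UMI was found in 97.5% of blood-lineage cells, 34.9% of lymphatic-lineage cells and 12.2% of melanocytic cells. It spread more widely over blood-lineage cells than Gpihbp1, from 5.002 UMIs per 10000 at the 10th percentile over a median of 28.3 to 135 at the 90th.

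Fabp5 (chr3:10012548-10016607), its relative at a neighbouring place on the chromosome, was at 466 CPM in BEC against 248 CPM in LEC, 1.88-fold higher in BEC (1.82 to 1.94). That difference depended on which cells were summed. The melanocytic cells of the LEC sort were at 1090 CPM, 86.9% of them had a UMI, and they held 52.6% of the Fabp5 UMIs of the sort. Lymphatic-lineage cells were at 103 CPM with a UMI in 15.9%, and blood-lineage cells of the BEC sort at 457 CPM with a UMI in 53.9%. Between the gated lineages Fabp5 was 4.45-fold higher in blood cells (4.23 to 4.69).

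The nuclear receptors did not follow this order. Pparg (chr6:115360951-115490399) was at 36.7 CPM in BEC against 35.1 CPM in LEC, a ratio of 1.05 (0.951 to 1.15), and melanocytic cells were at 30.1 CPM. Shares of cells with a UMI were 12.3% in blood-lineage, 9.84% in lymphatic-lineage and 11.02% in melanocytic cells. Rxra (chr2:27676440-27762957), its partner, stayed under 10 CPM in both sorts, at 6.59 and 7.90 CPM, with LEC over BEC at 1.20 (0.965 to 1.49). Scaling by the median ratio over genes moved every log2 difference of LEC from BEC by -0.18 before the pseudocount, and Pparg then stood at -0.24 on that scale. For both genes the intervals of the CPM ratio, before that scaling, include 1, and no interval is given here after it. A level like that of the melanocytic cells cannot be told from free RNA by these shares.

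The transcription factor pair stood with the transporters. Meox2 (chr12:37108540-37179534) was at 121 CPM in BEC against 21.4 CPM in LEC, 5.67-fold higher in BEC and 6.32-fold between the gated lineages. A UMI was found in 31.2% of blood-lineage cells and 5.42% of lymphatic-lineage cells, against 0.408% of melanocytic cells. Tcf15 (chr2:152143561-152149097) was at 33.5 CPM in BEC against 3.02 CPM in LEC, 11.1-fold higher in BEC (8.62 to 14.5) and 15.8-fold between the gated lineages (11.2 to 23.0). It was found in 8.91% of blood-lineage cells and 0.732% of lymphatic-lineage cells, and in 0 of 245 melanocytic cells, which allows a share of up to 1.22%.

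The 99 cells of blood lineage within the LEC sort give a second view of the same cell type from the other sort. They were at 3331 CPM of Gpihbp1, 4142 CPM of Fabp4, 170 CPM of Cd36, 141 CPM of Meox2 and 25.5 CPM of Tcf15. In each of these 5 genes they lay far nearer to blood-lineage cells of the BEC sort than to the lymphatic cells beside which they were sorted. Lpl was at 27.6 CPM there (16.6 to 43.1), above the 8.62 CPM of blood-lineage cells of the BEC sort. The lymphatic-lineage cells of the LEC sort were at 22.5 CPM, within that interval. Within the LEC sort, Lpl was thus not lower in blood-lineage cells than in lymphatic-lineage cells.

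**Figure D2:**
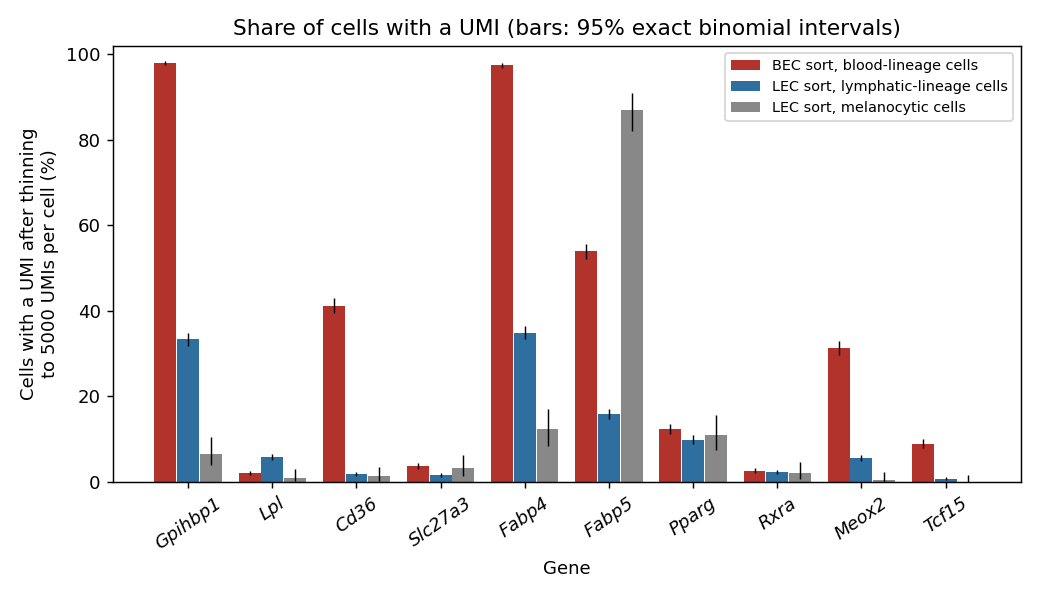
Percentage of cells with a UMI of each gene after thinning to 5000 UMIs per cell, with exact 95% binomial intervals. Blood-lineage cells (red) stand clear of both other groups for Gpihbp1, Cd36, Fabp4, Meox2 and Tcf15, and Fabp5 is most often seen in melanocytic cells (grey), at 86.9%.

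Blood-lineage cells of the BEC sort were next divided by subset markers, and cells that passed several of the 7 gates were left out. The gates were arterial (84 cells; Gja5, Bmx, Sema3g, Gkn3 and Stmn2), venous (256; Ackr1, Selp, Sele, Vwf and Lrg1), tip-like (330; Apln, Tnfrsf9, Kit, Cxcr4 and Chst1), Npr3-type (339; Npr3, Vegfc and Dkk2), Aplnr-type (245; Aplnr and Ramp3), capillary (157; Rgcc, Cd300lg, Car4 and Btnl9) and cycling (149). Within these subsets the genes that take part in one route were not highest in the same cells. Gpihbp1 was highest in Npr3-type cells and lowest in venous cells, Fabp4 and Fabp5 the reverse, and Lpl, Cd36, Slc27a3 and Tcf15 were highest in arterial cells.

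**Figure D3:**
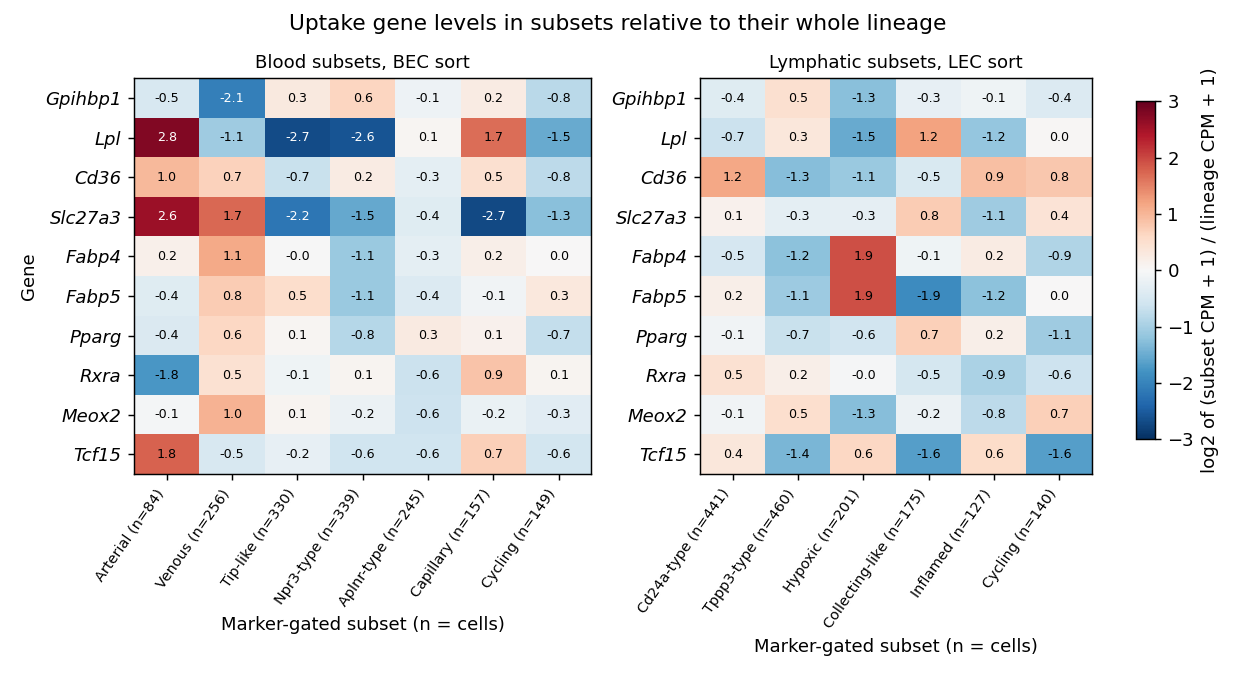
Log2 of the level in each subset over that in its whole lineage, with a pseudocount of 1 CPM, for 7 blood subsets (left) and 6 lymphatic subsets (right); red is above and blue below the lineage. Lpl and Slc27a3 stand out in arterial cells, Gpihbp1 is lowest in venous cells, and Fabp4 and Fabp5 are highest in hypoxic lymphatic cells.

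Gpihbp1 ran from 6156 CPM in Npr3-type cells over 4848 CPM in tip-like, 4626 CPM in capillary, 3547 CPM in Aplnr-type, 2800 CPM in arterial and 2233 CPM in cycling cells to 941 CPM in venous cells. Venous cells were 4.43-fold below all other blood-lineage cells (4.23 to 4.64). The gene was still seen in 89.8% of them after thinning.

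Fabp4 had 11728 CPM in venous cells, 2.45-fold above the other blood-lineage cells (2.41 to 2.48), and 2447 CPM in Npr3-type cells, 2.30-fold below them (2.24 to 2.36). The remaining 5 subsets lay between 4300 and 6001 CPM. Fabp5 had 775 CPM in venous and 211 CPM in Npr3-type cells, the latter 2.29-fold below (2.104 to 2.499). As a ratio of UMIs, Gpihbp1 per Fabp4 was 2.52 in Npr3-type cells and 0.0802 in venous cells, around 0.740 in the whole lineage. Venous-gated cells also held more stromal marker UMIs, 266 CPM summed against 59.1 CPM in the lineage, and more leukocyte marker UMIs, 203 against 52.7 CPM; their part in these values was not tested. The stromal-gated cells of the sort, at 8364 CPM of Fabp4 and 803 CPM of Gpihbp1, had a like ratio of 0.0959.

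**Figure D4:**
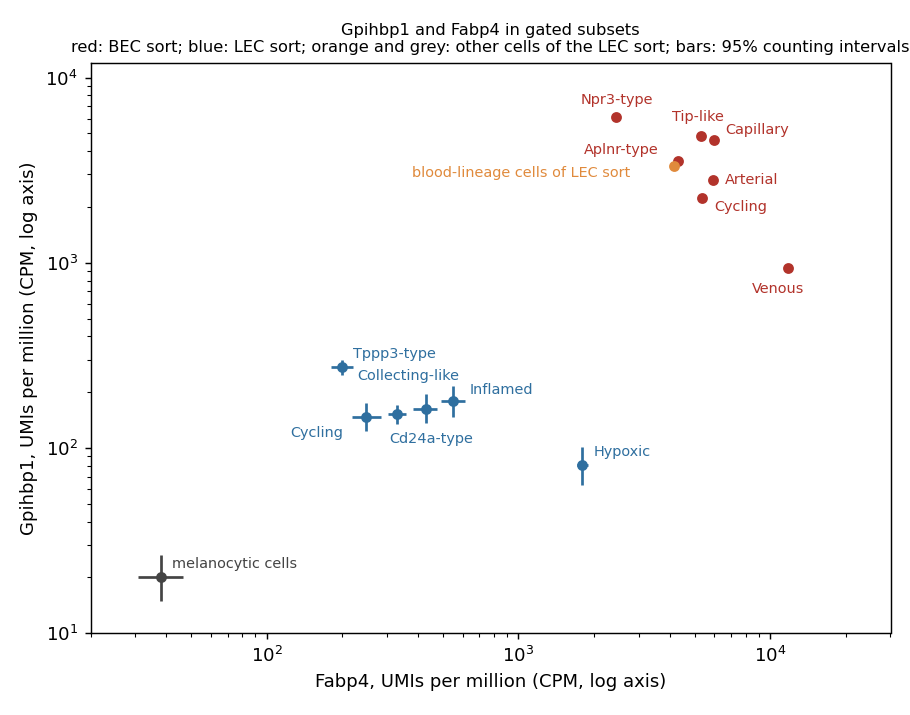
Gpihbp1 against Fabp4 in CPM (both log axes) in gated subsets of the 2 sorts, with 95% counting intervals. In both lineages the subset with the most Fabp4 (venous at 11728 CPM, hypoxic lymphatic at 1793 CPM) had the least Gpihbp1.

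Lpl was most unevenly spread. Arterial cells were at 64.9 CPM from 105 UMIs, 8.95-fold above the other blood-lineage cells (6.22 to 12.6), and capillary cells at 29.7 CPM from 96 UMIs, 3.92-fold above (2.69 to 5.60). Tip-like and Npr3-type cells had 4 UMIs each, 0.497 and 0.590 CPM. With cells of several gates kept, the arterial level was 30.05 CPM, and with every cell weighted alike the capillary level was 65.6 CPM. These values come from different alternatives and do not rank the gates. Arterial cells led in Lpl under 5 of 5 other ways of gating or weighting. Among arterial cells 9.52% had a UMI after thinning. The arterial gate summed to 60.0 CPM of stromal markers and the capillary gate to 46.7 CPM, beside 59.1 CPM in the lineage, and adipocyte markers were at 0 in the arterial gate. Stromal cells of the BEC sort held Lpl at 140 CPM, and their part in the arterial and capillary values was not tested.

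Cd36 was at 386 CPM in arterial cells, 2.03-fold above the rest (1.77 to 2.31), followed by 318 CPM in venous and 273 CPM in capillary cells, and was lowest in cycling cells at 113 CPM. Slc27a3 had its high values in 2 gates, 62.5 CPM in arterial cells (7.47-fold above, 5.18 to 10.5) and 34.0 CPM in venous cells (4.42-fold above, 3.30 to 5.88), against 0.619 to 7.25 CPM in the other 5. Its lowest value, in capillary cells, came from 2 UMIs.

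Among the regulators, Tcf15 was at 116 CPM in arterial cells, 3.68-fold above the rest (2.85 to 4.67), then at 56.0 CPM in capillary cells and between 21.9 and 28.3 CPM in the other 5 subsets. Its arterial level was 66.4 CPM with cells of several gates kept, and its capillary level 95.4 CPM with every cell weighted alike. As for Lpl, these alternatives differ, and arterial cells led in Tcf15 under 5 of 5 of them. Meox2 was at 252 CPM in venous cells, 2.27-fold above (2.06 to 2.496), and between 78.8 and 129 CPM elsewhere. Pparg ran from 19.6 CPM in Npr3-type to 56.0 CPM in venous cells. Rxra was at 12.7 CPM in capillary cells from 41 UMIs, 2.04-fold above (1.14 to 3.42). Meox2 and Tcf15 therefore did not have the same leading subset.

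Counted by subset against all other blood-lineage cells, 4 of the 9 members above the 10 CPM limit were at least 2-fold higher in arterial cells and 0 lower, against 4.61% and 4.41% of all genes. A gene passed this limit if either side of the comparison reached it. In venous cells 3 of 8 members were higher and 1 lower, against 5.28% and 5.83% of all genes. In capillary cells 2 of 10 were higher and 1 lower (0.423% and 2.79%), and in Npr3-type cells 0 of 8 higher and 3 lower (0.702% and 3.11%). In tip-like cells 0 of 8 were higher and 1 lower (2.08% and 4%), in cycling cells 0 of 8 higher and 1 lower (6.48% and 3.76%), and in Aplnr-type cells 0 of 7 were apart (0.437% and 2.15%). Lpl and Slc27a3 in arterial, Slc27a3 in venous, and Lpl and Rxra in capillary cells passed only through the subset where they were high. Slc27a3, counted as lower in capillary, Npr3-type, tip-like and cycling cells, passed there only through the other cells. Such calls add nothing to the levels given above. The leading subset stayed the same under 5 of 5 other ways of gating or weighting for 8 members, and under 4 of 5 for Cd36 and Rxra. In 5 members the highest subset was at least 2 times the lineage level: Lpl, Slc27a3 and Tcf15 in arterial cells, Fabp4 and Meox2 in venous cells. Keeping cells of several gates left 2 of these 5. Lpl stayed among them and Tcf15 did not. The arterial gate then held 266 cells.

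In the lymphatic lineage of the LEC sort the gates were Cd24a-type (441 cells; Cd24a and Scn3a), Tppp3-type (460; Tppp3 and Igfbp5), hypoxic (201; Npy, Ndufa4l2, Pgf and Egln3), collecting-like (175; Lsr, Postn and Foxp2), inflamed (127; class II antigen presentation genes and Vcam1) and cycling (140). The hypoxic cells stood apart in both binding proteins. Fabp4 was at 1793 CPM there, 4.67-fold above the other lymphatic-lineage cells (4.42 to 4.93), with a UMI in 77.6% of cells. Fabp5 was at 398 CPM, 4.71-fold above (4.19 to 5.30), with a UMI in 42.8%. Gpihbp1 was lowest in the same cells, at 80.5 CPM, 2.51-fold below the others (1.995 to 3.20), and Lpl was at 7.28 CPM. Melanocytic markers, which accompany Fabp5, summed to 123 CPM in the hypoxic gate and 147 CPM in the lineage. Pan-endothelial markers were lower there, at 2427 against 3541 CPM, and leukocyte markers higher, at 126 against 65.2 CPM. The part of these 3 marker lists in the hypoxic values was not tested.

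Tppp3-type cells had the opposite pair of values, with Gpihbp1 at 273 CPM, the highest of the 6 gates, and Fabp4 at 199 CPM, the lowest. Gpihbp1 per Fabp4 was 1.37 in these cells and 0.0449 in hypoxic cells, beside 0.526 in melanocytic cells. Collecting-like cells led in Lpl at 53.6 CPM, 2.56-fold above the rest (1.81 to 3.56; 33.9 CPM with a stricter lineage gate), and in Pparg at 59.2 CPM, and were lowest in Fabp5 at 27.1 CPM. Cd36 was at 15.1 CPM in Cd24a-type cells, 2.98-fold above the rest (1.84 to 4.70), with a UMI in 3.85% against 1.22% of melanocytic cells. Tcf15 was seen in 0 of 175 collecting-like cells and 0 of 140 cycling cells, which allows shares of up to 1.71% and 2.14%.

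By count, 2 of 6 members were at least 2-fold higher and 3 lower in hypoxic lymphatic cells, against 5.25% and 9.73% of all genes. In Tppp3-type cells 0 of 6 were higher and 2 lower (1.25% and 2.79%), in collecting-like cells 1 of 6 higher and 1 lower (1.86% and 4.6%), and in Cd24a-type cells 1 of 8 higher and 0 lower (0.827% and 2.38%). Inflamed cells had 1 of 7 higher and 2 lower (3.14% and 4.33%); the higher one, Cd36 at 12.5 CPM, was at 0.685 CPM with the gate 1 UMI higher. Cycling cells had 0 of 7 higher and 1 lower (7.04% and 4.68%). Cd36 in Cd24a-type and inflamed cells passed the 10 CPM limit only through the subset where it was high. Lpl in hypoxic and inflamed cells and Meox2 in hypoxic cells, counted as lower, passed it only through the other cells.

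Within single blood-lineage cells of the BEC sort some members were found together. Of the 45 pairs, 7 had a Pearson correlation of log thinned UMIs of at least 0.2 over 3098 cells. These cells share their sort, their library is not given, and they are no replicates. The ranges within subsets were taken over the gates and also over the cells of no gate and of several gates. Fabp4 and Fabp5 had the highest, 0.59, and between 0.39 and 0.66 within single subsets; in lymphatic-lineage cells it was 0.35. Lpl and Tcf15 came next at 0.45, and between -0.03 and 0.63 within single subsets: Tcf15 was seen in 40 of the 59 cells with Lpl (67.8%) and in 7.77% of cells without it. Cd36 was seen in 98.3% of cells with Lpl and in 40.0% of the others, with a correlation of 0.29 (0.11 to 0.49 within subsets). Cd36 went with Fabp4 at 0.31 (0.04 to 0.53 within subsets) and with Tcf15 at 0.24 (-0.0048 to 0.45). Gpihbp1 and Fabp4, although both seen in nearly every cell, were opposed at -0.26, and between -0.28 and -0.07 within subsets.

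The genes with the most similar pattern over these cells, among 3018 others at 50 CPM or more, set the members apart further. For Gpihbp1 they were Igfbp3 (0.61) and Igfbp7 (0.54), which code for binding proteins of insulin-like growth factors, the matrix gene Sparc (0.60), Esm1 (0.45), a marker of sprouting endothelium, and Stc1 (0.44). For Fabp4 they were Fabp5, Ifitm3 (0.33), Fbln2 (0.31), Cd36 and H2-K1 (0.30), while Igfbp3 (-0.46) and Sparc (-0.41) were opposed to it. For Cd36 they were Fabp4, the chemokine gene Cxcl12 (0.30), Ly6c1 (0.28), Ly6a (0.22) and Egr1 (0.21). For Lpl, among 3019 genes, they were Cxcl12 (0.30), Cd36, Lims2 (0.24), Tspan13 (0.24) and AW112010 (0.23). For Tcf15 they were Fabp4, Cd36, Ly6c1 (0.22), Cav1 (0.22) and Egr1 (0.20). Plvap, which codes for the diaphragm protein of fenestrae and was itself a blood gate marker, was the gene most opposed to Lpl (-0.30) and to Tcf15 (-0.28). For Meox2 no gene passed 0.22, the value of Spint2, followed by Sdpr (0.21), Ifitm3 (0.20), Ackr1 (0.20) and Fabp4 (0.20).

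Other genes of fatty acid handling were counted in the same way. Of 98 listed symbols in 8 groups 96 were in the file and 61 reached 10 CPM; 6 of them stood at least 2-fold higher in BEC, 11 in LEC, and 44 lay within 2-fold. Over all 8307 genes at that level 8.76% were higher in BEC, 11.7% in LEC, and 6611 lay within 2-fold. With the gated lineages 55 reached that level, with 7 higher in BEC and 7 in LEC, against 9.62% and 11.6% of all genes. The 7 on the BEC side include Flt1 and Nrp1, which were markers of the blood gate, so their excess there was set by the gate. The median log2 difference over the 61 genes was 0.04. In the beta-oxidation group, the enzymes that burn fatty acids in mitochondria, 15 of 15 lay within 2-fold, among them Ech1 (204 CPM in BEC, 223 CPM in LEC), Etfb (104 and 164 CPM) and Hadhb (112 and 144 CPM).

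**Figure D5:**
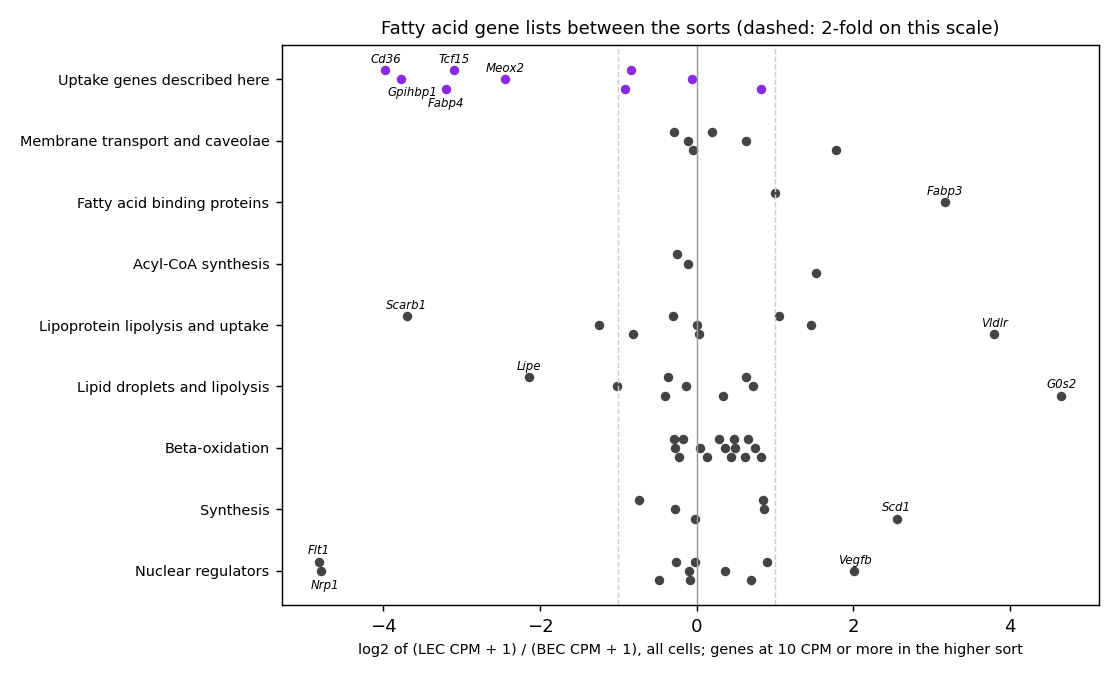
Log2 of LEC over BEC level with a pseudocount of 1 CPM for genes that reached 10 CPM, by group; the top row holds the uptake genes and dashed lines mark 2-fold. Flt1 and Nrp1 lie furthest to the BEC side, followed by the uptake genes Cd36 and Gpihbp1 and by Scarb1. Flt1 and Nrp1 are receptors and Vegfb is a growth factor, although all were plotted in the row of nuclear regulators. Among the uptake genes Pparg lies near the middle and Lpl on the LEC side. The beta-oxidation genes lie between the dashed lines.

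Caveolar genes, which shape the membrane pits common in endothelium, were alike: Cav1 was at 563 and 519 CPM and Ptrf at 188 and 154 CPM, while Cav2 was 1.55-fold higher in LEC (1.49 to 1.62). Scarb1, a receptor for high-density lipoprotein, was at 419 CPM in BEC against 31.2 CPM in LEC, 13.4-fold higher in BEC (12.4 to 14.5), and 29.5-fold between the gated lineages (25.9 to 33.7). Acvrl1, which also takes part in lipoprotein passage, was 2.40-fold higher in BEC. The very-low-density lipoprotein receptor Vldlr went the other way, 1.42 CPM against 32.7 CPM, 23.1-fold higher in LEC (16.7 to 32.7). Among lipases, Lipe was 5.27-fold higher in BEC, at 21.5 and 4.08 CPM. Mgll was at 338 and 166 CPM, 2.03-fold higher in BEC (1.95 to 2.11) but 1.83-fold between the gated lineages, under the 2-fold limit. Lrp1, a receptor for lipoprotein remnants counted on the LEC side, was 2.26-fold higher in LEC in all cells (1.85 to 2.77), while its LEC over BEC ratio was 0.722 between the gated lineages (0.514 to 1.002). G0s2, an inhibitor of triglyceride breakdown, was at 2.96 and 99.0 CPM, 33.5-fold higher in LEC (26.8 to 42.2).

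Some of the LEC-side values again came with melanocytic cells. Fabp3 was at 12.1 CPM in all LEC cells, 83.7 CPM in melanocytic and 1.85 CPM in lymphatic-lineage cells, and Scd1 at 16.4, 84.9 and 4.02 CPM. Slc27a1 was at 10.5 CPM in all LEC cells and 3.66 CPM in lymphatic-lineage cells. Dbi, the acyl-CoA binding protein, was at 367 and 738 CPM, and Fabp7 stayed under 10 CPM. The excess of Dbi in LEC, 2.01-fold in all cells, was 1.57-fold between the gated lineages. Of the acyl-CoA synthetases Acsl5 was at 92.0 and 85.1 CPM, Acsl4 at 10.3 and 8.49 CPM, and Acsl3 at 5.15 and 16.7 CPM. Acsl3 was 3.25-fold higher in LEC in all cells but 1.85-fold between the gated lineages, where it stayed under 10 CPM. Plin2 and Hilpda, genes of lipid droplets, were at 107 and 97.3 CPM and at 59.9 and 99.4 CPM. In synthesis, Elovl1 was at 173 and 171 CPM, Acly at 69.3 and 125 CPM and Scd2 at 51.7 and 94.7 CPM. Acly went the other way from Dbi and Acsl3, from 1.81-fold higher in LEC in all cells to 2.01-fold between the gated lineages. Meox1, the relative of Meox2, was at 180 and 231 CPM, slightly higher in LEC (1.28-fold, 1.23 to 1.33), unlike Meox2. Vegfb, a growth factor tied to endothelial fatty acid transport, was at 5.02 and 23.3 CPM, and its receptors Flt1 and Nrp1, used here as blood markers, were at 1157 and 40.0 CPM and at 534 and 18.3 CPM.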

How the data were processed

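The deposited values are raw UMI counts, 1 row per gene and 1 column per cell, which the authors made with Cell Ranger 2.1.1 on build mm10, per the submitters' processing notes; how they chose cells is not stated in these sources. Counts were summed over cells and scaled to CPM. A count of 3, the limit that 0 allows, is 0.0421 CPM in BEC and 0.0506 CPM in LEC. Unlike the intervals, this limit was not widened for the repeat values and would then be higher. Poisson and binomial ratio intervals (95%) used counts divided by 2.58 (BEC) and 2.80 (LEC), the mean square over the mean of the repeat values. For gates, shares and correlations each cell was thinned to 5000 UMIs; no cell was shallower. Gates needed 20 UMIs of melanocytic or 10 of stromal, leukocyte or adipocyte markers. A lineage needed 5 lineage and 2 pan-endothelial UMIs with 66.7% of 1 kind; 201 cells of the LEC sort lay between the limits. A subset needed 3 UMIs, or 2 times the list's mean in the lineage if more. Gate limits were set after the data were seen; near them lay, within 1 UMI, from 50 (venous) to 509 (Npr3-type) cells. No doublet caller was run; cells that passed a gate of another type were left out of the lineages. The members and lists were chosen with earlier results of these data known. Of each wider list, the 3 highest genes and those 4-fold apart at 10 CPM or more are named; likeness names the 5 highest. Positions came from GENCODE M21 (GRCm38), which held 27337 of the symbols, and Cavin1 is listed as Ptrf. The steps were tested on simulated data (Python 3.11.15, numpy 2.4.6, scipy 1.17.1, matplotlib 3.10.9).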

Additional observations from a re-analysis of the deposited data

How the results depend on the processing

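The values rest on 1 sample per sort, and depth limits the low genes: Lpl, Slc27a3, Rxra and Tcf15 have under 50 UMIs in several gates. No paired analysis was possible because the columns of the matrix carry no library number and no test was made. The median log2 difference of LEC from BEC over the 10 members, -1.68, was -2.37 with lineage-gated cells, -2.03 without cells gated as other types and -2.39 with a lineage share of 0.8, the last chosen after seeing the data; its direction held in these and in the 5 other alternatives. The count of wider genes higher in BEC, 6, became 12 with no minimum level. The count higher in LEC, 11, became 29 with no minimum level, 2 at 50 CPM, 21 at 1.5-fold, 7 with lineage-gated cells and 7 with median-of-ratios size factors. Members whose highest blood subset was at least 2 times the lineage level went from 5 to 2 when cells of several gates were kept. Without thinning, the median share of cells with a UMI over the members went from 21.9 to 37.1% in BEC and from 5.70 to 7.72% in LEC, and the pairs with a correlation of at least 0.2 went from 7 to 11, an alternative added after seeing the data. None of the 10 members' ratios changed direction under the alternatives run. Of the wider genes, Lrp1, at an LEC over BEC ratio of 2.26 in all cells, was at 0.722 between the gated lineages, and several with ratios near 1 also changed side, among them Etfdh (1.03 and 0.906). Of single ratios 26 moved beyond their interval and 54 did not, and of the levels in gates 106 did and 544 did not; in each case the cause was not tested.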

Other observations

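Genes that act on lipoprotein lipase from outside were not among the 10, and 1 of them, Angptl4, an inhibitor of the enzyme, is named here after its values were seen. It was at 96.4 CPM in BEC against 98.2 CPM in LEC, but unevenly within both lineages. Tip-like blood cells were at 339 CPM and arterial and venous cells at 29.7 CPM each. Hypoxic lymphatic cells were at 260 CPM and Tppp3-type cells at 30.0 CPM. In each lineage the subset with the most Angptl4 had the least Lpl, tip-like cells at 0.497 CPM and hypoxic lymphatic cells at 7.28 CPM. The tip-like value came from 4 UMIs, as many as in Npr3-type cells. Those were at 0.590 CPM of Lpl and only 49.4 CPM of Angptl4. Venous cells, low in Angptl4, were also low in Lpl, at 3.56 CPM. Low Lpl was seen in subsets with much and with little Angptl4. These are RNA levels and not activity of the enzyme, and a relation between the genes was not tested.

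Apoe, the apolipoprotein that binds receptors for lipoprotein remnants, was at 464 CPM in BEC against 264 CPM in LEC. In the LEC sort melanocytic cells were at 1209 CPM and lymphatic-lineage cells at 62.2 CPM. Among blood subsets venous cells were highest of those named here, at 1330 CPM, and tip-like cells were at 198 CPM.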
